A study of Homo sapiens with 4 samples.

Results

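The genes described here encode 48 enzymes and readers that act on histone acetylation and histone methylation: 11 histone deacetylases (HDACs), 7 sirtuins, 9 acetyltransferases, 11 demethylases, 8 methyltransferases and 2 bromodomain (BET) readers. They were taken by gene name from a table of 58735 annotated genes, and each of the 48 had 1 row in it. Transcript counts came from SW1990, an established human pancreatic adenocarcinoma cell line, after 24 h with 10 µM gomisin G or with vehicle. Gomisin G is a lignan of Schisandra fruits, and the labels do not name the solvent used as vehicle. There were 2 libraries of each group, numbered replicate 1 and replicate 2 within the group. All 4 libraries are of the same line, and the labels do not say that replicates were separate cultures, so every p-value measures the spread among these 4 libraries, part or all of which may be technical.

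Acetyl groups on histone tails are added by acetyltransferases, removed by HDACs, which use zinc, or by sirtuins, which use NAD, and bound by bromodomain proteins such as the BET family. Methyl groups on histone lysines are added by methyltransferases, most with a SET domain, and removed by KDM1-type amine oxidases or Jumonji-type dioxygenases. Acetylation and methylation of histone H3 lysine 4 mark active genes, whereas methylation of lysine 27 by the EZH enzymes of Polycomb complex PRC2 marks silenced ones. Genes of this kind, KMT2C and KMT2D among them, are recurrently mutated in pancreatic cancer, and HDACs, EZH2, LSD1 and BET proteins are drug targets.

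Total counts were 15034663 and 15245770 in the gomisin G libraries and 14580848 and 14901526 in the vehicle libraries, and 15721 genes had enough counts to be tested. Clustered histone genes, whose transcripts mostly lack poly(A) tails, held 0.0127 and 0.0105% of counts with gomisin G and 0.00724 and 0.00605% with vehicle. The libraries are labelled as made by removal of ribosomal RNA, and whether poly(A) RNA was also selected was not tested. Levels are given as CPM (counts scaled to the library's total with TMM factors), and changes as log2 of gomisin G over vehicle with their standard error (SE). A gene is called where the adjusted p of edgeR's quasi-likelihood test is below 0.05 over all tested genes. The epithelial and ductal markers fixed for this line (KRT7, KRT8, KRT18, KRT19, EPCAM, CDH1 and MUC1) summed to 7010 to 9341 CPM in the gomisin G libraries and to 9435 to 11234 CPM in the vehicle libraries. The sum weights abundant genes most. Of the 7 log2 changes 4 were positive and 3 negative, with a median of 0.29, and 0 were called. Acinar, immune and endothelial markers each summed to under 1 CPM in every library, and PTPRC, CD3E, CELA3A and AMY2A had no counts. The fibroblast list summed to 8.57 and 11.7 CPM with gomisin G and to 4.62 and 4.91 CPM with vehicle, all but a trace of it from COL1A1 and PDGFRB. COL1A2 and LUM of this list were at 0 in all libraries. The 2 genes of the list with enough counts to be tested had log2 changes of 0.83 and 1.57, and neither was called. In both, the gomisin G libraries were above both vehicle libraries, where 27.0% of all tested genes were. As in any bulk sample, fewer cells making a transcript and less of it per cell cannot be told apart.

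Among the chromatin enzymes 1 gene, the class IIa deacetylase gene HDAC5, rose after gomisin G. Of the 48 members 47 had enough counts to be tested. Of these 47, 1 was called as higher, where 0.922% of all tested genes were, and 0 were called as lower, where 0.903% were. By DESeq2 and limma voom these counts were likewise 1 and 0, where these tools called 6.50% and 1.58% of genes in either direction. In edgeR 10 members had an unadjusted p below 0.05, of which 7 were higher and 3 lower, against 20.6% of all tested genes. The log2 changes ranged from -0.75 to 0.87 with a median of -0.04, beside a median of 0.01 over all tested genes. Both gomisin G libraries lay above both vehicle libraries for 15 members and below both for 8, where 27.0% and 27.3% of tested genes did so. The counts depended on single libraries. Without gomisin G replicate 1 there were 6 members called higher and 3 lower, where 8.25% and 8.85% of all tested genes were. Without gomisin G replicate 2 there were 6 and 20, where 18.5% and 20.1% of genes were. Without vehicle replicate 1 there were 0 and 0, where 0.438% and 0.522% of genes were, and without vehicle replicate 2 there were 0 and 0, where 0.415% and 0.397% were.

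**Figure D1:**
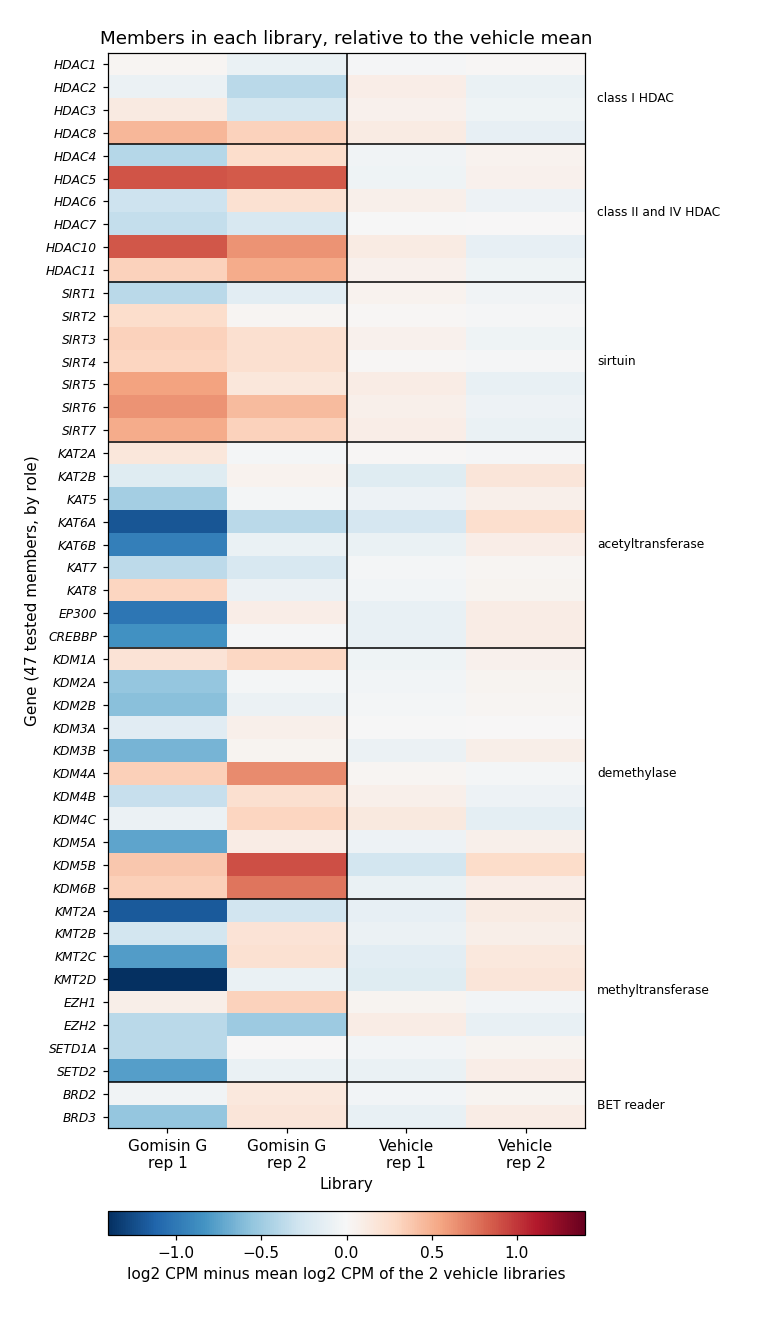
Colour map of the 47 tested members (down the page, in role groups) in the 2 gomisin G and 2 vehicle libraries (across), as log2 CPM minus the mean of the vehicle libraries. HDAC5 is high in both gomisin G libraries, while KMT2D, KAT6A, KMT2A and EP300 are at their lowest in gomisin G replicate 1 and much nearer to vehicle in replicate 2.

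Of the class I HDACs, HDAC1, HDAC2 and HDAC3 are nuclear catalytic subunits of the Sin3, NuRD, CoREST and NCoR co-repressor complexes. The class I genes, which also include HDAC8, showed no called change. HDAC1, the most abundant of them per length, had 212.5 and 195.9 CPM in the gomisin G libraries and 205.3 and 211.2 CPM in the vehicle libraries. These ranges overlapped, and the log2 change of -0.03 had a 95% interval of -0.38 to 0.32 (SE 0.15, adjusted p = 0.936). HDAC2, its partner in the same complexes, had a log2 change of -0.22, and HDAC3, the NCoR-bound enzyme, one of -0.05. HDAC8, which deacetylates the cohesin subunit SMC3, had 12.4 and 11.2 CPM with gomisin G against 9.73 and 8.34 CPM with vehicle. All gomisin G values of HDAC8 were above the vehicle values, yet its log2 change of 0.39 did not pass the test (SE 0.21, adjusted p = 0.327).

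Among class II and class IV HDACs, HDAC5 was the called gene. Class IIa enzymes (HDAC4, HDAC5, HDAC7 and HDAC9) bind MEF2 transcription factors and shuttle between nucleus and cytoplasm when phosphorylated. HDAC5 lies on the minus strand of chromosome 17 at 44076746 to 44123702 (GRCh38) and had 60.1 and 59.3 CPM in the gomisin G libraries, against 31.3 and 34.2 CPM in the vehicle libraries. Its mean was 59.7 ± 0.537 CPM with gomisin G and 32.7 ± 2.03 CPM with vehicle (SD, n = 2 each), so both gomisin G libraries agreed closely and lay well clear of vehicle. The fold change was 1.82 (log2 change 0.87, SE 0.16, 95% interval 0.50 to 1.23, adjusted p = 0.0402). The call was lost when vehicle replicate 1 was left out (log2 change 0.80, adjusted p = 0.411) and when vehicle replicate 2 was (log2 change 0.93, adjusted p = 0.309). It was also lost, narrowly, when genes of low expression were kept in the test (log2 change 0.85, adjusted p = 0.0527).

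No other class IIa gene was called. HDAC7 had 63.3 and 68.4 CPM with gomisin G and 79.7 and 80.3 CPM with vehicle, below vehicle in both libraries (log2 change -0.28, SE 0.15, adjusted p = 0.332), and overlaps SLC48A1 on the other strand. With each library's trend on gene length taken out of the fit, the log2 change of HDAC7 was -0.10 (adjusted p = 0.686). HDAC4 had a log2 change of -0.04 (95% interval -0.56 to 0.47). HDAC9 had 7 and 9 counts in the gomisin G libraries and 2 and 19 counts in the vehicle libraries, too few to be tested. Of the class IIb enzymes, the cytoplasmic tubulin deacetylase gene HDAC6 had a log2 change of -0.02. HDAC10, which acts on polyamines, had 8.63 and 7.32 CPM with gomisin G and 5.10 and 4.37 CPM with vehicle (log2 change 0.75, SE 0.24, adjusted p = 0.145). It rests on 380 counts in all and overlaps MAPK12 on the same strand, which had 4362. HDAC11, the class IV enzyme that removes long fatty acyl groups, had 20.2 and 23.2 CPM with gomisin G and 17.0 and 15.5 CPM with vehicle (log2 change 0.42, SE 0.18, adjusted p = 0.245). For both genes the groups did not overlap and the test was not passed.

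None of edgeR, DESeq2 and limma voom called any of the 7 sirtuin genes (0 calls), where they called 1.83%, 6.50% and 1.58% of genes. In edgeR 2 of the 7 had an unadjusted p below 0.05, where 20.6% of all tested genes did. In 6 of the 7 both gomisin G libraries were above both vehicle libraries in CPM, where 27.0% of all tested genes were. The margin was small for SIRT2, with 18.05 CPM in gomisin G replicate 2 and 17.93 CPM in vehicle replicate 1. SIRT4 had 23 and 24 counts with gomisin G and 19 and 19 counts with vehicle. In TPM (counts per length and library) the groups overlapped for SIRT2 and SIRT3. The list had a median log2 change of 0.27, and a joint change of the sirtuin genes was not tested. SIRT6, a nuclear enzyme of telomeric chromatin, DNA repair and glucose metabolism, had 51.4 and 45.3 CPM with gomisin G and 34.9 and 31.6 CPM with vehicle (log2 change 0.54, SE 0.17, adjusted p = 0.132). SIRT7, the nucleolar member, had 104.4 and 90.7 CPM with gomisin G and 77.3 and 68.2 CPM with vehicle (log2 change 0.42, SE 0.16, adjusted p = 0.204), and it overlaps MAFG on the same strand. In both genes gomisin G replicate 1 was the higher of its group. The mitochondrial sirtuin genes SIRT3, SIRT4 and SIRT5 had log2 changes of 0.27, 0.26 and 0.37, and the mainly cytoplasmic SIRT2 had 0.14. SIRT3 and SIRT2 overlap PSMD13 and NFKBIB on the other strand, each with more counts than the sirtuin. The exception in direction was SIRT1, the deacetylase of p53 and histones, at 39.6 and 46.6 CPM with gomisin G against 53.3 and 49.9 CPM with vehicle (log2 change -0.26, 95% interval -0.64 to 0.13).

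The acetyltransferase genes lay mostly on the lower side, with a median log2 change of -0.30 over 9 genes, 7 of them negative. Over all tested genes 7744 of 15721 were negative. The median length of the 9 was 11749 bases, and of tested genes with at least 10000 bases 1187 of 1596 were negative, with a median of -0.24. With each library's trend on gene length taken out of the fit, 7 were likewise negative and the median was -0.15. With each of the 3 tools 0 were called, where edgeR, DESeq2 and limma voom called 1.83%, 6.50% and 1.58% of genes. In edgeR 1 had an unadjusted p below 0.05, where 20.6% of all tested genes did. Relative to the vehicle mean, their median log2 difference was -0.47 for gomisin G replicate 1 alone and -0.03 for gomisin G replicate 2 alone. KAT6A, the MYST enzyme also called MOZ, had 30.3 and 53.9 CPM with gomisin G and 59.3 and 82.2 CPM with vehicle (log2 change -0.75, SE 0.28, adjusted p = 0.193). It had the most negative log2 change of all members, and replicate 1 was much the lower of the gomisin G libraries. With gomisin G replicate 1 as the sole treated library its log2 change was -1.22. With gomisin G replicate 2 as the sole one it was -0.39. KAT6B, its close relative, had 14.1 and 25.7 CPM with gomisin G and 25.5 and 29.2 CPM with vehicle. EP300, which encodes p300, had 41.0 and 88.5 CPM with gomisin G and 76.9 and 88.9 CPM with vehicle. CREBBP, which encodes its paralog CBP, had 81.7 and 146.1 CPM with gomisin G and 136.8 and 158.9 CPM with vehicle. In all 3 of these genes gomisin G replicate 1 was far below vehicle while replicate 2 lay within the vehicle range.

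The remaining acetyltransferase genes differed less between the gomisin G libraries. KAT7, the HBO1 enzyme that acetylates histones at replication origins, had 49.4 and 54.5 CPM with gomisin G and 62.7 and 64.9 CPM with vehicle (log2 change -0.30, SE 0.16, adjusted p = 0.321). It has 11749 bases, and with the length trend removed its log2 change was -0.07 (adjusted p = 0.789). KAT2A, the GCN5 subunit of SAGA and the most abundant of the group per length, had 137.2 and 121.4 CPM with gomisin G and 124.5 and 122.1 CPM with vehicle, groups that overlapped (log2 change 0.07, SE 0.15, adjusted p = 0.834). KAT2B (PCAF), KAT5 (TIP60) and KAT8 (MOF) had log2 changes of -0.07, -0.23 and 0.12, and KAT5 overlaps RNASEH2C, which had more counts, on the other strand.

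Demethylase genes lay on both sides of vehicle. Of 11 log2 changes 5 were positive and 6 were negative, with a median of -0.03. With the length trend removed 4 were negative and the median was 0.21. Each of the 3 tools called 0, where edgeR, DESeq2 and limma voom called 1.83%, 6.50% and 1.58% of genes. In edgeR 3 had an unadjusted p below 0.05, all higher with gomisin G, where 20.6% of all tested genes had one in either direction. KDM6B, the JMJD3 enzyme that removes methyl groups from H3 lysine 27 and is an inducible gene in many cells, had 56.4 and 74.8 CPM with gomisin G and 41.7 and 47.8 CPM with vehicle (log2 change 0.55, SE 0.19, adjusted p = 0.165). KDM4A, a demethylase of H3 lysines 9 and 36, had 28.1 and 35.3 CPM with gomisin G and 22.6 and 21.9 CPM with vehicle (log2 change 0.51, SE 0.18, adjusted p = 0.177). KDM5B, which removes methyl groups from H3 lysine 4, had 23.6 and 34.1 CPM with gomisin G and 15.2 and 21.8 CPM with vehicle (log2 change 0.64, SE 0.25, adjusted p = 0.204). In these 3 genes no gomisin G value overlapped vehicle, and replicate 2 was the higher gomisin G library. In the length-corrected fit, KDM5B (log2 change 0.95, adjusted p = 0.0247) and KDM6B (log2 change 0.65, adjusted p = 0.0425) joined HDAC5 among the called members. There, 3 members were thus called as higher, where 2.86% of all tested genes were. Called as lower were 0 members, where 2.87% of genes were.

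KDM1A, the amine oxidase LSD1 of the CoREST complex, was the most abundant demethylase gene, with 315.0 and 336.3 CPM in gomisin G libraries and 264.5 and 286.3 CPM in vehicle libraries. The gomisin G values were higher throughout, by a log2 change of 0.24 that did not pass the test (SE 0.16, 95% interval -0.13 to 0.61, adjusted p = 0.418). The H3 lysine 36 demethylase genes KDM2A and KDM2B had log2 changes of -0.26 and -0.31, and the lysine 9 demethylase genes KDM3A and KDM3B had -0.04 and -0.27. KDM2B overlaps RNF34 on the other strand. KDM4B, KDM4C and KDM5A, relatives of KDM4A and KDM5B, had log2 changes of -0.03, 0.12 and -0.25.

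Methyltransferase genes lay mostly on the lower side, with 7 of 8 log2 changes negative and a median of -0.30. Over all tested genes 7744 of 15721 were negative. The median length of the 8 was 10189 bases, and of tested genes with at least 10000 bases 1187 of 1596 were negative, with a median of -0.24. With the length trend removed 5 were negative, KMT2B (0.16) and KMT2C (0.04) turned positive, and the median was -0.16. Their median log2 difference from the vehicle mean was -0.58 for gomisin G replicate 1 alone and -0.04 for gomisin G replicate 2 alone. Each of the 3 tools called 0 of the 8 genes, where edgeR, DESeq2 and limma voom called 1.83%, 6.50% and 1.58% of genes. An unadjusted p below 0.05 in edgeR was found for 2, where 20.6% of all tested genes had one. KMT2A (MLL1), a methyltransferase of H3 lysine 4, had 71.4 and 134.0 CPM with gomisin G and 148.6 and 174.4 CPM with vehicle (log2 change -0.65, SE 0.28, adjusted p = 0.234). Both gomisin G libraries of KMT2A were below vehicle, replicate 1 by far the more. Its log2 change was -1.18 when gomisin G replicate 2 was left out and -0.27 when gomisin G replicate 1 was. KMT2D (MLL4), which methylates enhancers, had 84.3 and 207.7 CPM with gomisin G and 197.1 and 249.1 CPM with vehicle, so replicate 2 was inside the vehicle range and replicate 1 far beneath it (log2 change -0.61, SE 0.36, adjusted p = 0.373). SETD2, the enzyme of H3 lysine 36 trimethylation, had a log2 change of -0.40, and KMT2C and KMT2B had -0.21 and -0.02. SETD1A, a catalytic subunit of COMPASS and the methyltransferase gene with the highest mean level per length, had 75.3 and 98.3 CPM with gomisin G and 95.5 and 100.1 CPM with vehicle (log2 change -0.17, SE 0.18, adjusted p = 0.609).

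EZH2 and EZH1 are the alternative catalytic subunits of PRC2, and their log2 changes had opposite signs. EZH2, which prevails in dividing cells, had 46.3 and 42.4 CPM with gomisin G and 64.6 and 56.1 CPM with vehicle (log2 change -0.44, SE 0.17, adjusted p = 0.187). EZH1, which prevails in resting cells, had 34.7 and 41.0 CPM with gomisin G and 33.7 and 31.8 CPM with vehicle (log2 change 0.21, SE 0.17, adjusted p = 0.510). The groups did not overlap in either gene, and neither passed the test. The ratio of EZH2 to EZH1 in TPM (counts per length and library) was 2.06 and 1.60 in the gomisin G libraries and 2.97 and 2.72 in the vehicle libraries, without overlap. The difference between the 2 genes was not tested.

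The promoters of this pair are shown because the genes encode the same PRC2 activity and their log2 changes differ in sign. The windows are from RefSeq (GRCh38.p14), run from 250 bases before to 50 bases after a start site, and are printed 5′ to 3′ on the gene's strand, which is minus for both. Capitals mark matches, on either strand, to the E2F-type letters TTTGGCG or TTTCGCG and to the CCAAT box, and no match of 1 motif overlaps a match of another.
EZH2, chr7:148884242-148884541: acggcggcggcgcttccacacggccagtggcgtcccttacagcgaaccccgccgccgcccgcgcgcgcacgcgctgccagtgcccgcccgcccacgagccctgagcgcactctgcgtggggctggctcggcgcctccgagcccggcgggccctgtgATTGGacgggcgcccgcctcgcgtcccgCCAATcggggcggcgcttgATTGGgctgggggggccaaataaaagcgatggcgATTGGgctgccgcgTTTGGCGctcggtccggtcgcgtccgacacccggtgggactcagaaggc
EZH1, chr17:42744991-42745290: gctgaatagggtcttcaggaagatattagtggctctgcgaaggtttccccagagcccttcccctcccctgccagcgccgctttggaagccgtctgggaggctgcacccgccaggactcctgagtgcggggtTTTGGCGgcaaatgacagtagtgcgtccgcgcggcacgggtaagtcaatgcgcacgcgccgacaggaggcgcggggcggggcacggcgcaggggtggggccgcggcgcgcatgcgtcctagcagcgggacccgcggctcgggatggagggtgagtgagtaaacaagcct
Both windows hold 1 TTTGGCG, which 1.92% of the 35116 RefSeq promoter windows and 3 of the 44 members with a window contain. The EZH2 window holds 4 CCAAT boxes and the EZH1 window 0, and 34.6% of all windows hold at least 1. Neither window has TTTCGCG (1.32% of all windows), the AP-1 letters TGANTCA (7.71%) or the TEAD letters GGAATG (14.0%). The members without a window in that table were HDAC5, SIRT7, KAT6A and KAT8.

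BET proteins bind acetylated histones through paired bromodomains. BRD2, the more abundant per length, had 341.4 and 391.1 CPM with gomisin G and 343.2 and 362.4 CPM with vehicle, a log2 change of 0.05 with a 95% interval of -0.33 to 0.44 (SE 0.17, adjusted p = 0.883). BRD3 had 30.2 and 49.6 CPM with gomisin G and 40.9 and 47.3 CPM with vehicle (log2 change -0.14, SE 0.24, adjusted p = 0.772), and overlaps BRD3OS on the other strand. In both genes the groups overlapped, with gomisin G replicate 1 the lowest and replicate 2 the highest of the 4 libraries.

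**Figure D2:**
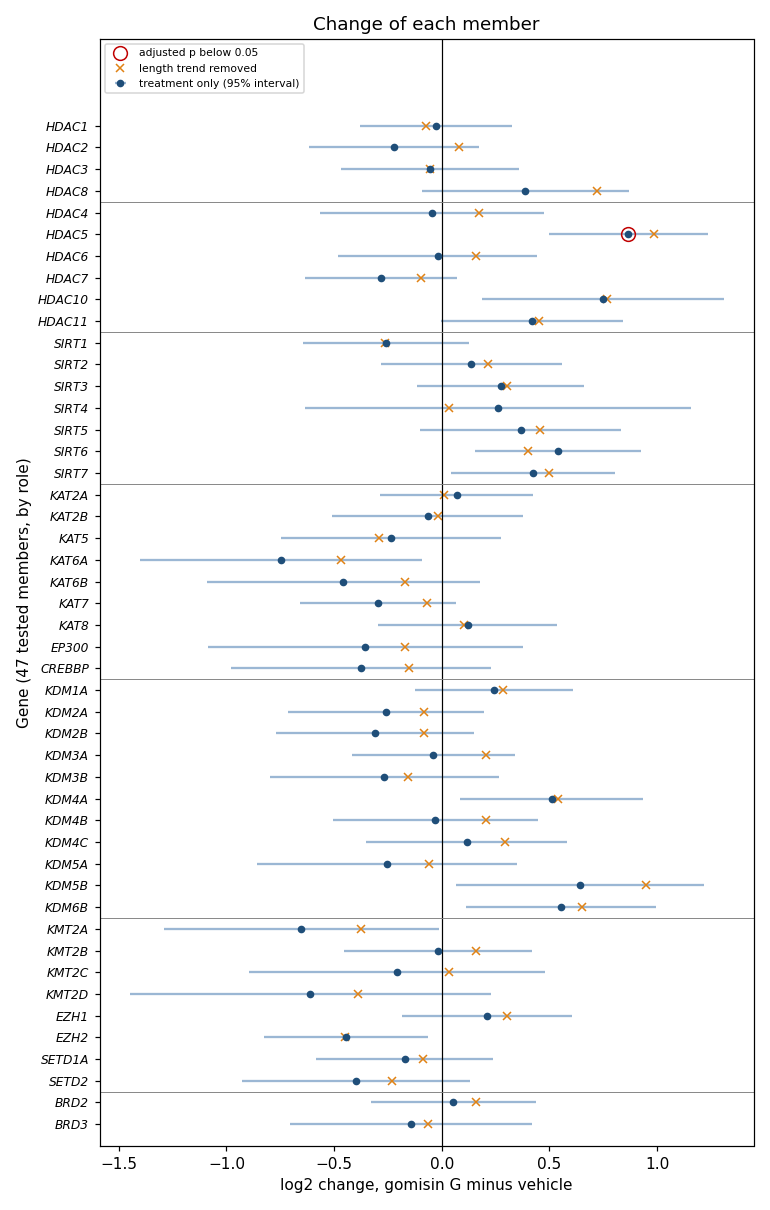
Log2 change (gomisin G minus vehicle) of each of the 47 tested members, in role groups, with 95% intervals as bars; crosses are the change after removal of each library's trend on gene length, and the ring marks the call. HDAC5, at 0.87, is the one ringed gene, and the crosses of long genes such as KAT6A and KMT2A lie nearer to 0 than their points.

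The members differed between libraries by their length. Many of these enzymes are very large proteins, and the median annotated exon length of the tested members was 7618 bases, against 4423 bases over all tested genes. Of the 21 tested members with at least 10000 bases, gomisin G replicate 1 lay below both vehicle libraries in 17 and replicate 2 in 6, where 74.2% and 46.1% of the 1596 tested genes of that length did so. Their median log2 difference from the vehicle mean was -0.54 in replicate 1 and 0.07 in replicate 2, beside -0.46 and -0.05 over all tested genes of that length. Of the 26 shorter members replicate 1 was below both vehicle libraries in 8 and replicate 2 in 7, with medians of 0.17 and 0.15. Of all 14125 shorter tested genes, replicate 1 was below both in 5691 and replicate 2 in 5490, with medians of 0.05 and 0.02. Over the 47 members together replicate 1 lay below both vehicle libraries in 25, beside 43.7% of all tested genes, and replicate 2 in 13, beside 39.6%.

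The same relation was present within each group, where no treatment differs. Across the 47 members the log2 difference of gomisin G replicate 1 from replicate 2 correlated with log2 length at Pearson's r = -0.62 and Spearman's rho = -0.64, and that of vehicle replicate 1 from replicate 2 at r = -0.43 and rho = -0.41. Over all 15721 tested genes the gomisin G difference had r = -0.20 and rho = -0.38, and the vehicle difference r = -0.12 and rho = -0.21. These are descriptions across genes measured in the same libraries, and genes are not independent replicates. The lower values of the long genes KAT6A, KAT6B, EP300, CREBBP, KMT2A, KMT2C and KMT2D stand beside this difference between libraries, whose part in them was not tested other than by the length-corrected fit. In that fit KAT6A had a log2 change of -0.47 (adjusted p = 0.119), KMT2A -0.37 (adjusted p = 0.137), KMT2D -0.39, EP300 -0.17, KAT6B -0.17, CREBBP -0.15 and KMT2C 0.04. HDAC5, with 7618 bases, had 0.99 (adjusted p = 0.0130), and EZH2, with 4522 bases, -0.45 (adjusted p = 0.0950). The median over the members was 0.04 in that fit, beside 0.00 over all tested genes.

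**Figure D3:**
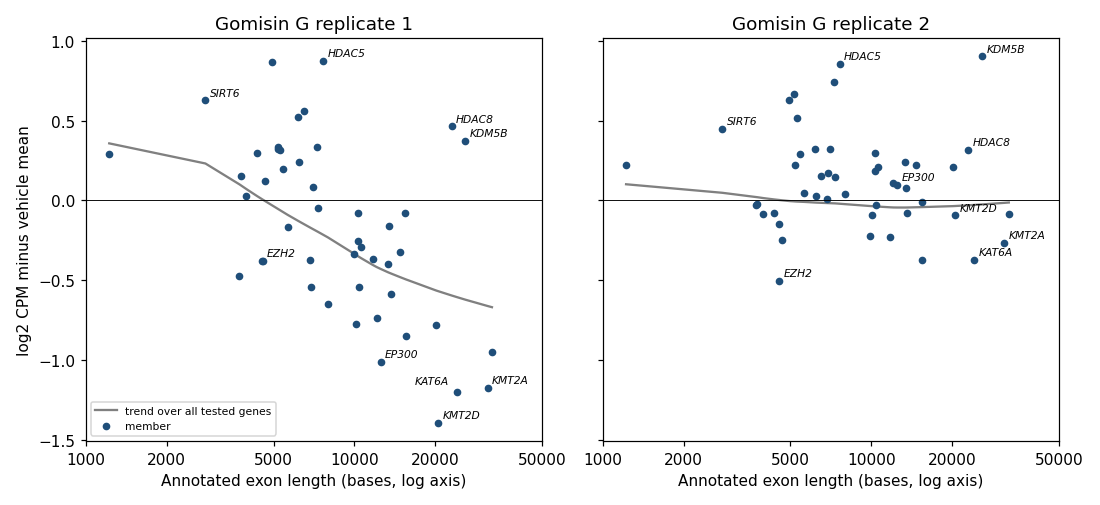
Log2 CPM minus the vehicle mean (vertical) against annotated exon length in bases (horizontal, log axis) for the 47 tested members, with gomisin G replicate 1 on the left and replicate 2 on the right; the grey line is the smooth trend over all tested genes at the members' lengths. Long members such as KMT2D, KMT2A, KAT6A and EP300 lie between -1.39 and -1.01 in replicate 1 and between -0.37 and 0.10 in replicate 2, while HDAC5 lies at 0.88 and 0.86.

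Per length and library (TPM, which is not scaled with TMM factors), the members spanned a wide range of levels. KDM1A was the highest in the gomisin G mean, at 183.7 TPM, and stood at place 2 in the vehicle mean, at 167.9 TPM. HDAC1 had 157.0 TPM with gomisin G and 174.2 TPM with vehicle, and BRD2 had 153.8 TPM with gomisin G and 159.5 TPM with vehicle. KDM1A was the highest of the 3 in each gomisin G library, and HDAC1 was the highest in each vehicle library, above BRD2 without overlap. The other neighbouring ranges among these 3 genes overlapped within each group. KAT2A followed at 104.3 TPM with gomisin G and 108.5 TPM with vehicle. At the other end HDAC8 had 1.57 TPM with gomisin G and 1.30 TPM with vehicle, and HDAC9 had 0.0964 TPM with gomisin G and 0.139 TPM with vehicle. HDAC5 stood at place 18 of 48 with gomisin G and at place 32 with vehicle, with 21.7 and 26.3 TPM in gomisin G libraries and 13.7 and 14.9 TPM in vehicle libraries. The length used is that of all annotated exons merged (22986 bases for HDAC8 and 15461 for HDAC2), so a gene that uses only some of its exons appears lower than it is.

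**Figure D4:**
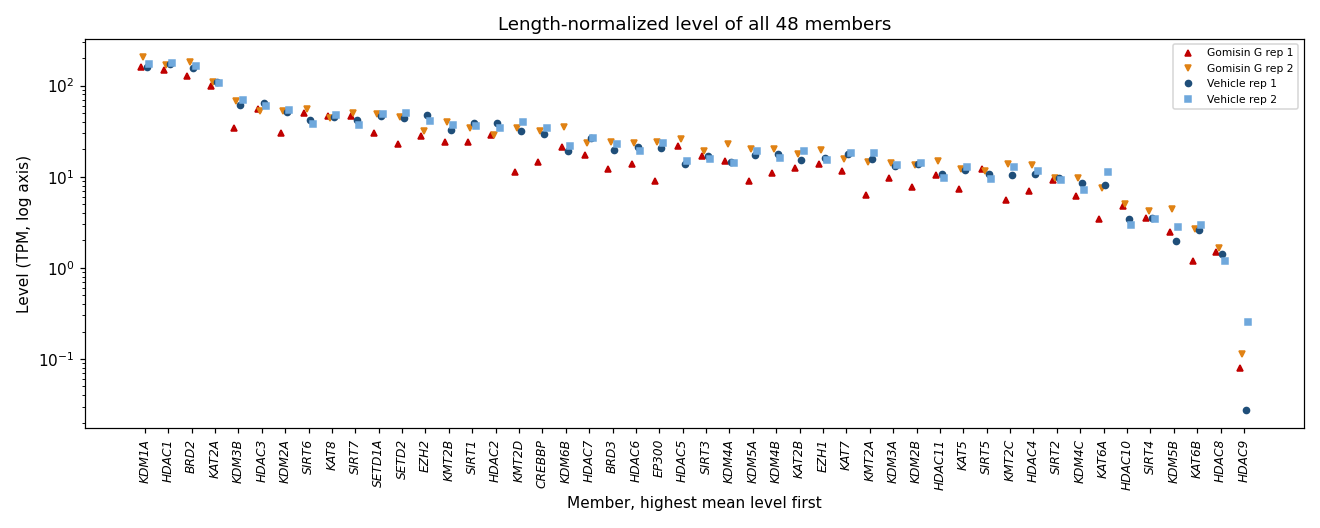
Level of all 48 members in TPM (vertical, log axis), with 1 point for each gomisin G and vehicle library, ordered by mean level. Gomisin G means run from 183.7 TPM for KDM1A to 0.0964 TPM for HDAC9, and gomisin G replicate 1 is the low point for many of the genes.

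Related members were also set against each other within each library, where scaling between libraries cancels out. The pairs were chosen after values were seen, and the ratios are given with no test. HDAC5 over HDAC7 was 1.24 and 1.13 in gomisin G libraries and 0.512 and 0.555 in vehicle libraries. HDAC5 over HDAC4 was 3.12 and 1.97 with gomisin G and 1.28 and 1.29 with vehicle. HDAC5 was thus below HDAC7 per length in vehicle libraries and above it in gomisin G libraries, and above HDAC4 in all 4. KDM5B over KDM5A was 0.277 and 0.223 with gomisin G and 0.113 and 0.146 with vehicle. KMT2A over KMT2B was 0.259 and 0.358 with gomisin G and 0.478 and 0.501 with vehicle. For these 4 ratios the groups did not overlap. The longer gene of each pair (HDAC4, HDAC7, KDM5B and KMT2A) is the more subject to the length trend. KAT6A over KAT6B was 2.89 and 2.82 with gomisin G and 3.12 and 3.78 with vehicle, also without overlap. The groups were likewise apart for KDM4A over KDM4B, SIRT6 over SIRT7 and SIRT6 over SIRT1. EP300 over CREBBP was 0.621 and 0.751 with gomisin G and 0.697 and 0.693 with vehicle, values that overlapped. So did those of HDAC1 over HDAC2, KAT2A over KAT2B, BRD2 over BRD3 and KDM3A over KDM3B.

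**Figure D5:**
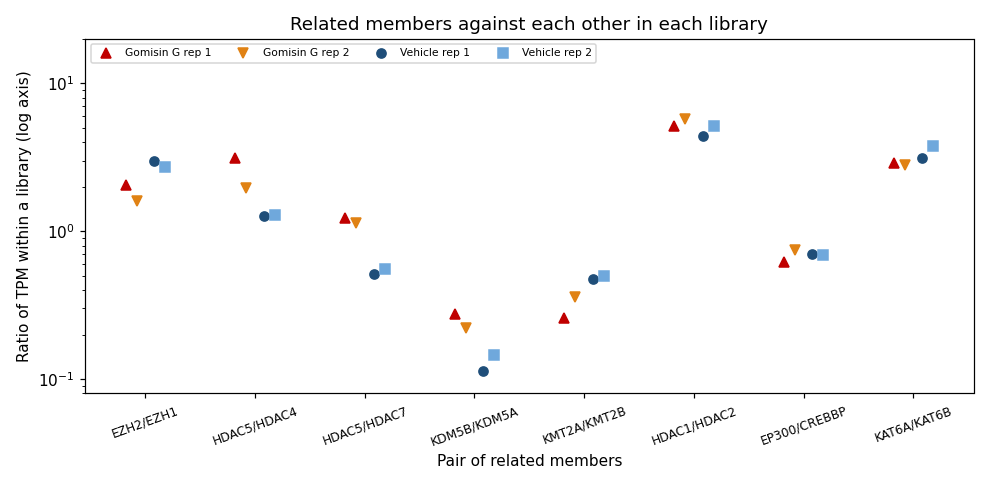
Ratio of TPM of related members within each library (vertical, log axis), with 1 point for each gomisin G and vehicle library. The gomisin G points are above vehicle for both HDAC5 ratios and KDM5B over KDM5A, and below it for EZH2 over EZH1, KMT2A over KMT2B and KAT6A over KAT6B. They are intermixed with it for EP300 over CREBBP and HDAC1 over HDAC2.

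The non-catalytic partners and other enzymes of the same pathways were examined as 8 lists holding 147 genes, of which 146 were tested. By edgeR 0 of these were called in either direction, beside 1.83% of all tested genes. An unadjusted p below 0.05 was found for 19, where 20.6% of all tested genes had one. DESeq2 called 5, where it called 6.50% of the 13587 genes it gave an adjusted p, and limma voom called 0, where it called 1.58% of genes. By none of these counts did the partner genes exceed the share of all genes. The median log2 change was -0.10. By list it was -0.09 over 19 SAGA and ATAC subunits, -0.06 over 26 subunits of MYST complexes, -0.07 over 32 HDAC co-repressor subunits, -0.23 over 14 COMPASS subunits, -0.22 over 11 PRC2 subunits, -0.24 over 22 other methyltransferases, 0.01 over 12 other demethylases and 0.00 over 12 genes of acetyl-CoA, SAM and NAD supply. In the PRC2 list 10 of 11 log2 changes were negative, where 7744 of 15721 over all tested genes were. With the length trend removed the median of this list was -0.13. The log2 change of EZH2 was negative too, while that of the alternative subunit EZH1 was positive (0.21). By edgeR 0 of the 11 were called, EZH2 was not called, and a joint change of these genes was not tested.

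The 5 partner genes that DESeq2 called, named here after their values were seen, came from 5 of the lists. SUZ12, the PRC2 core subunit that EZH2 needs for activity, had 82.1 and 100.1 CPM with gomisin G and 143.5 and 147.7 CPM with vehicle (edgeR log2 change -0.68, adjusted p = 0.080). WDR82, which directs the SETD1 enzymes to RNA polymerase, had 122.6 and 160.9 CPM with gomisin G and 220.6 and 236.9 CPM with vehicle (edgeR log2 change -0.69, adjusted p = 0.0924). Both were below vehicle in each gomisin G library. SUV39H2, a methyltransferase of H3 lysine 9, had 25.2 and 21.8 CPM with gomisin G and 37.0 and 38.9 CPM with vehicle (edgeR log2 change -0.69, adjusted p = 0.0805). ING4, a reader subunit of the KAT7 complex, had 20.3 and 17.7 CPM with gomisin G and 10.6 and 10.8 CPM with vehicle (edgeR log2 change 0.82, adjusted p = 0.0721). HR, the hairless demethylase gene, had 30.9 and 43.3 CPM with gomisin G and 22.1 and 22.3 CPM with vehicle (edgeR log2 change 0.74, adjusted p = 0.102). The last of these were above vehicle in each gomisin G library, and by edgeR none of the 5 passed. In the length-corrected fit, 4 of the 146 tested partner genes were called, where 5.72% of all tested genes were. These 4 were the genes named here other than ING4, which DESeq2 had picked from the same counts.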

How the data were processed

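RNA-seq libraries of SW1990 cells were analysed, 2 with gomisin G and 2 with vehicle. The authors deposited unnormalized counts for each gene. Per the submitters' processing notes, fastp, HISAT2 and featureCounts were used with hg38. Their versions, the strand setting and the handling of multiply matching reads are not given in the sources used here, and reads of overlapping genes cannot be told apart. Per the labels' protocols, ribosomal RNA was removed from total RNA. The series-wide table and the sample tables differed in 0 values, and all 58735 genes had the coordinates and merged exon length of GENCODE 29.

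Counts were tested with edgeR 4.0.16 in R 4.3.3 (filter by group, TMM, robust quasi-likelihood F test, Benjamini-Hochberg adjustment over 15721 genes), with treatment alone in the design. DESeq2 1.42.0 and limma 3.58.1 voom were alternatives. The fit was checked on simulated counts, drawn without a length difference between libraries. Of genes changed 1.5-fold 7 of 50 were called, and of those changed 2-fold 28 of 48. Of unchanged genes 5 of 15141 were called. A change of the size seen in the members may thus go uncalled. For the length-corrected fit, each library's lowess trend (span 0.3) of log2 CPM relative to the gene's mean, on log2 exon length, entered the offsets. TPM used the deposited gene length. At these depths 3 counts equal 0.197 to 0.206 CPM, the floor for a count of 0, covering counting error only.

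The members and lists were chosen with earlier results of these data known. Values per library with full statistics are given for called members, the 12 with the lowest p and, in each role group, those with the lowest p and the highest TPM. Some further members and pairs were added after values were seen.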

Additional observations from a re-analysis of the deposited data

How the results depend on the processing

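Over all tested genes 287 were called. DESeq2 called 883, removal of the length trend gave 900, and the replicate block, which adds the replicate number to the design, gave 2886. Leaving out 1 library gave 135 to 6322 called genes, 0 to 6 members called as higher and 0 to 20 called as lower. Fits without a vehicle library take their spread from the gomisin G pair, which differed more (SD of log2 differences 0.553 against 0.385 for the vehicle pair), and fits without a gomisin G library take it from the vehicle pair. In each, the lone library is assumed to vary like the other group. The members called as higher numbered 1 in the main fit, 0 without the expression filter, 3 with the length trend removed and 6 with the replicate block. Those called as lower numbered 0, and 7 with the replicate block. With that block 8.96% of all tested genes were called as higher and 9.40% as lower. The labels do not say what a replicate number shares, so the block is given as an alternative only. The r of replicate 1 minus replicate 2 differences between the groups was 0.215 over 15721 genes. This r cannot decide whether replicates were paired, as the differences of both groups also fell with gene length. The 7 were KAT6A, KMT2D, KMT2A, KAT6B, EP300, EZH2 and SETD2.

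The median over the members, -0.04, had no stable sign. It was -0.18 to 0.09 with 1 library left out, 0.02 with upper-quartile factors and 0.04 with the length trend removed, and negative in the other alternatives run. HDAC5 kept a positive log2 change in every alternative, from 0.80 to 0.99. Among the other named members the sign turned for HDAC1 with upper-quartile factors (0.031). With 1 library left out, the log2 change ranged from -0.091 to 0.031 for HDAC1, from -0.55 to 0.17 for BRD3, from -0.025 to 0.16 for KAT2A, from -0.38 to 0.0047 for SETD1A and from -0.046 to 0.15 for BRD2, the sign turning without gomisin G replicate 1 (BRD3, KAT2A and SETD1A) or without gomisin G replicate 2 (HDAC1 and BRD2). The cause was not tested. Depth limits HDAC9, which was not tested, and HDAC10 and SIRT4, which have the fewest counts of the tested members.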
